A study of Mus musculus with 16 samples.

Results

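The genes of oxidative phosphorylation were examined in cultured spermatogonial stem cells of the mouse, the germ cells of the testis that renew themselves and feed spermatogenesis. The genes were chosen by symbol, as nuclear genes whose symbol starts with Nduf, Uqcr, Cox4i, Cox5, Cox6, Cox7, Cox8, Sdh (a to d) or Atp5. This gave 90 of the 18193 genes named on the array, and 85 of them were bright enough to be tested, among 11145 tested genes in all. By complex there were 34 genes of complex I (33 tested), 4 of complex II (4 tested), 8 of complex III (8 tested), 19 of complex IV (15 tested) and 17 of complex V (17 tested). The symbol rule also took in 8 assembly factors of complex I, Ndufaf1 to Ndufaf8 (8 tested), which are not subunits. Ndufa4 and Ndufa4l2 were counted with complex IV, where Ndufa4 is now placed.

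The cultures came from Thy1+ germ cells of the C57BL\6 background and were kept without serum, with 20 ng/ml GDNF, 150 ng/ml GFRA1 (its soluble co-receptor) and 1 ng/ml FGF2. They received short interfering RNA (siRNA) for 30 h, against Etv5 (n = 4), against Bcl6b (n = 4), against Pou3f1 (n = 4), or a negative control siRNA (n = 4). All 16 RNA samples, 1 per Affymetrix Mouse 430 2.0 array, thus carried an siRNA, and the knockdowns were transient and share the same 4 control arrays. Whether the replicates of a group came from different cultures is not stated in the labels, so a p-value here covers only the variation among these arrays, part of which may be technical.

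Oxidative phosphorylation runs in the inner mitochondrial membrane. Complexes I and II pass electrons from NADH and succinate to ubiquinone, complex III passes them to cytochrome c, complex IV reduces oxygen, and complex V uses the proton gradient so built to make ATP. Most subunits are encoded in the nucleus, a few core subunits by mitochondrial DNA, and assembly factors bring the parts together. Etv5, Bcl6b and Pou3f1 are transcription factors that respond to GDNF in these cells and take part in their self-renewal.

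The members as a whole lay close to control in every knockdown with all 16 arrays. On the log2 scale, the median difference from control over all 85 tested members was -0.03 in Etv5 knockdown, -0.02 in Bcl6b knockdown and -0.05 in Pou3f1 knockdown, against -0.03, -0.01 and -0.02 over all tested genes in the same order. None of the 85 members passed limma's test at an adjusted p under 0.05 in any knockdown, where 2.09% of all tested genes were called in Etv5 knockdown, 3.21% in Bcl6b knockdown and 2.25% in Pou3f1 knockdown. At an unadjusted p under 0.05, limma had 2 members in Etv5 knockdown (11.0% of all tested genes), 17 in Bcl6b knockdown (19.6%) and 5 in Pou3f1 knockdown (12.2%). The 95% interval of the log2 difference lay within 0.5 of 0 for 84 members in Etv5 knockdown, 81 in Bcl6b knockdown and 83 in Pou3f1 knockdown. Such an interval can still hold a shift smaller than 0.5.

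A single gene of the group rose in every knockdown. Ndufaf4, an assembly factor of complex I, was higher on all 12 knockdown arrays than on any control array, with both of its probe sets. Its dimmer probe set passed the test with all 16 arrays, at log2 differences of 0.34 in Etv5 knockdown, 0.50 in Bcl6b knockdown and 0.48 in Pou3f1 knockdown. Because the controls are shared, these rises do not tell an effect of the knockdowns from one of the control siRNA.

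**Figure D1:**
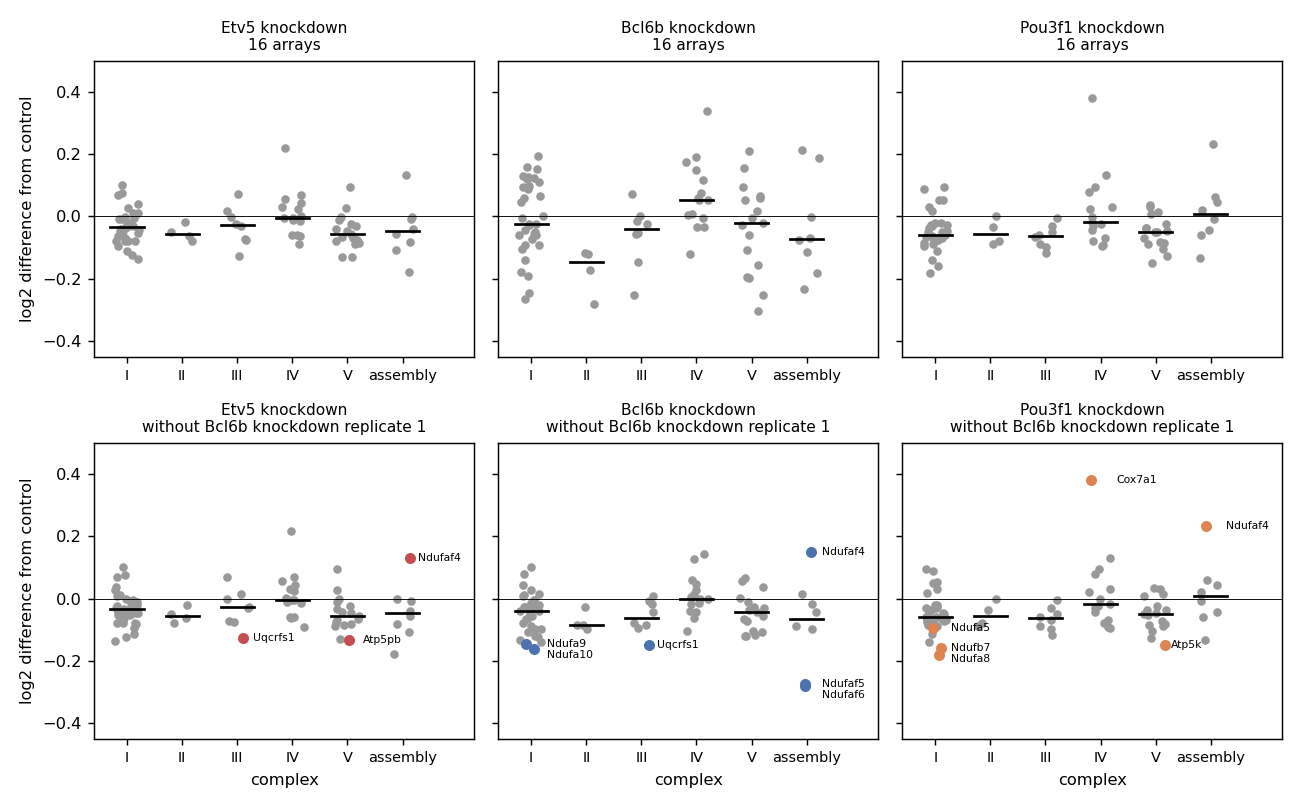
Log2 difference from control (y axis) of the 85 tested genes by complex (x axis), for each knockdown, with 16 arrays (upper row) and without Bcl6b knockdown replicate 1 (lower row). Each point is a gene, horizontal bars are medians, and coloured, named points passed limma's test at an adjusted p under 0.05. No point is coloured in the upper row, and 3, 6 and 6 are in the lower row.

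One array stood apart. Bcl6b knockdown replicate 1 correlated with the other arrays at a mean of 0.975, where the other 15 had 0.996 to 0.997, on log2 values over all probe sets other than controls. The array's control probe sets gave a log2 signal at the 3' end over the 5' end of 1.03 for Gapdh and 3.08 for beta-actin, while the other 15 arrays gave -0.53 to -0.45 for Gapdh and 0.62 to 0.76 for beta-actin. Since a common spread was estimated for all groups, the median residual SD was 0.134 (log2) with this array and 0.0841 without it. Member calls and the counts of calls are therefore given with and without it. Each targeted gene was lower in its own knockdown with 16 arrays, Etv5 by a log2 difference of -1.49 (adjusted p = 0.00115, limma), Bcl6b by -1.01 (adjusted p = 0.000167) and Pou3f1 by -0.68 (adjusted p = 0.00103). Bcl6b also fell in Etv5 knockdown, at -1.10 (adjusted p = 6.21e-05). Without the array these were -1.49, -1.05, -0.68 and -1.10, with adjusted p of 8.78e-07, 1.07e-05, 4.76e-05 and 1.58e-06. The targets fell less on replicate 3 of 2 groups. Etv5 read 1676 on Etv5 knockdown replicate 3, against 912, 912 and 898 on replicates 1, 2 and 4. Pou3f1 read 519 on Pou3f1 knockdown replicate 3, against 393, 354 and 393. Of 15 spermatogonial markers 13 were on the array, and every one was above the array's median on at least 1 array of each group.

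Markers of other cells were present, and some of them differed between knockdown and control, while the sums of several lists overlapped control. The summed intensity of 15 fibroblast markers ran over 193870 to 202667 in Etv5 knockdown, 187183 to 196900 in Bcl6b knockdown and 188811 to 195233 in Pou3f1 knockdown, against 186547 to 188051 in control. Of these markers, Vim alone was called with 16 arrays, higher in all 3 knockdowns. Without Bcl6b knockdown replicate 1, Vim, Postn and Pdgfrb rose in Etv5 knockdown, Vim and Pdgfrb rose and Thbs1 fell in Bcl6b knockdown, and Vim and Postn rose and Col1a1, Fn1 and Thbs1 fell in Pou3f1 knockdown. The 8 endothelial markers summed to 131 to 235 in Etv5 knockdown, against 319 to 347 in control, and 6 of them were below the array median on all arrays of both groups. Plvap and Ramp2 of that list fell in Etv5 knockdown with 16 arrays, at -1.30 and -1.09. The 10 macrophage markers summed to 707 to 763 in Etv5 knockdown, 774 to 1319 in Bcl6b knockdown and 776 to 870 in Pou3f1 knockdown, against 707 to 840 in control. Of these Mrc1 fell in Etv5 knockdown, at -1.31 (adjusted p = 0.00189, limma), and so did Lyz2 without Bcl6b knockdown replicate 1. The 10 markers of differentiating spermatogonia and meiosis summed to 12547 to 13359 in Etv5 knockdown, 10110 to 12024 in Bcl6b knockdown and 11988 to 12779 in Pou3f1 knockdown, against 11370 to 11693 in control. Of these Sohlh1 rose in Etv5 knockdown, by 0.61 (adjusted p = 0.00116), and so did Kit and Sycp3 without that array. Among spermatogonial markers other than the targets, Lhx1 fell in Etv5 knockdown, at -1.33 (adjusted p = 0.00193), and Ret rose in Bcl6b and Pou3f1 knockdown, by 0.35 and 0.38, with 16 arrays. Without that array Zbtb16 and Uchl1 rose and Id4 and Sall4 fell in Etv5 knockdown as well, and Zbtb16 rose in Pou3f1 knockdown. The 11 Sertoli and Leydig markers summed to 6375 to 6903 in Etv5 knockdown and 5822 to 6658 in Bcl6b knockdown. They summed to 6366 to 6922 in Pou3f1 knockdown, against 6745 to 6897 in control. Without that array Rhox5 of this list fell in Etv5 knockdown, Star fell in Bcl6b knockdown and Hsd3b1 rose in Pou3f1 knockdown. Of 7 germ cell identity genes, Piwil2 rose in Etv5 knockdown in that fit. The part of other cells in the results was not tested, and in such bulk samples fewer cells of a type and less RNA per cell cannot be told apart.

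Without Bcl6b knockdown replicate 1, 3 members were called in Etv5 knockdown, 6 in Bcl6b knockdown and 6 in Pou3f1 knockdown. These are 3.53%, 7.06% and 7.06% of the 85 members, against 9.52%, 10.9% and 11.4% of all tested genes in the same order. Ndufaf4 was the gene called in all 3 knockdowns, and Uqcrfs1, the iron-sulfur subunit of complex III, fell in Etv5 and Bcl6b knockdown. The other calls were each made in a single knockdown, and apart from Ndufaf4 and Cox7a1 all were falls. Called lower were 2.35%, 5.88% and 4.71% of the members in Etv5, Bcl6b and Pou3f1 knockdown. Over all tested genes these shares were 4.94%, 6.87% and 7.08%. In size the members' calls ran between -0.28 and 0.38 on the log2 scale.

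Shifts per complex were small. In Etv5 knockdown the medians of the log2 differences were -0.03 for complex I, -0.06 for complex II, -0.03 for complex III, -0.00 for complex IV, -0.06 for complex V and -0.05 for the assembly factors. In Bcl6b knockdown with 16 arrays they were -0.02, -0.15, -0.04, 0.05, -0.02 and -0.07 in that order, and without replicate 1 they were -0.04, -0.09, -0.06, 0.00, -0.04 and -0.07. The complex II and complex IV values of Bcl6b knockdown thus rested in part on that array. In Pou3f1 knockdown they were -0.06, -0.06, -0.06, -0.02, -0.05 and 0.01. Without Pou3f1 knockdown replicate 4 these became -0.02, -0.02, -0.03, 0.00, -0.02 and 0.08, and the median of all members became -0.02, so that the lower values of this knockdown rested in part on replicate 4.

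Seen array by array, the members' median deviation from the control mean was -0.06, -0.06, 0.01 and -0.02 (log2) in Etv5 knockdown. It was 0.07, -0.08, -0.02 and -0.02 in Bcl6b knockdown, and 0.01, -0.01, -0.04 and -0.15 in Pou3f1 knockdown. The control arrays lay at -0.02, 0.01, 0.01 and 0.00. Pou3f1 knockdown replicate 4 was the lowest, and its median over all tested genes was also its group's lowest, at -0.07. Within groups the members varied little, with a median SD (log2) of 0.05 in Etv5 knockdown, 0.13 in Bcl6b knockdown (0.05 without replicate 1) and 0.08 in Pou3f1 knockdown, against 0.04 in control. Over all tested genes this SD was 0.08, 0.19 (0.07 without replicate 1), 0.08 and 0.06.

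**Figure D2:**
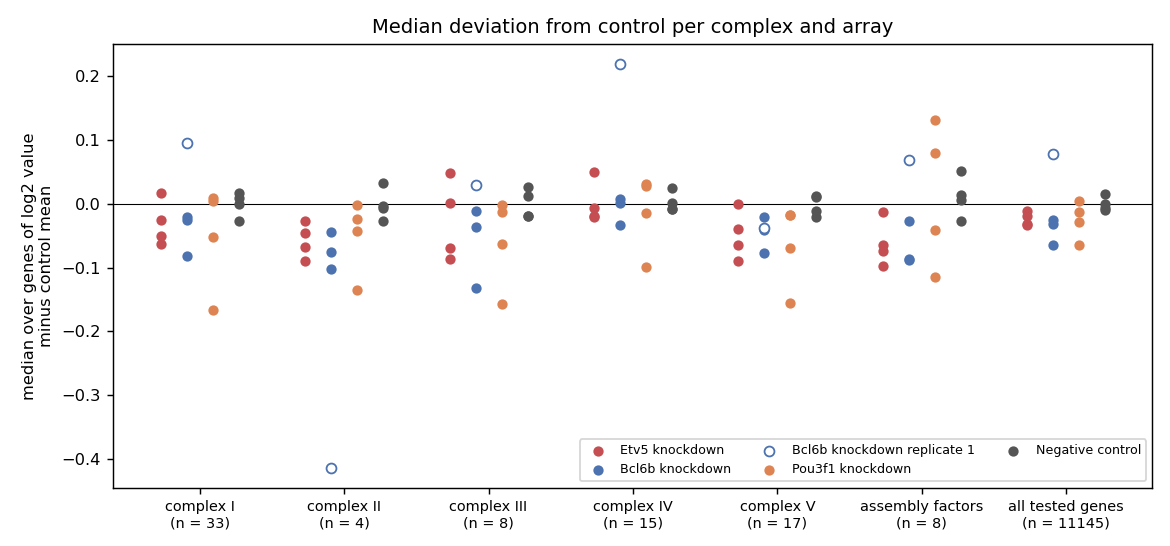
Median over the genes of a complex of the log2 value minus the control mean (y axis), 1 point per array, by complex and for all tested genes (x axis), with the 3 knockdowns left of the control. The open point is Bcl6b knockdown replicate 1, which lies at -0.41 for complex II and 0.22 for complex IV, and the lowest Pou3f1 knockdown point of complex I and of complex III is replicate 4.

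Counted by separation, 14 of 85 members had 4 Etv5 knockdown arrays all above or all below the 4 control arrays, against 17.3% of all tested genes. In Bcl6b knockdown there were also 14 (14.7% of all tested genes), and in Pou3f1 knockdown 9 (18.1%). Lower values made up 12 of the 14 in Etv5 knockdown, 12 of the 14 in Bcl6b knockdown and 7 of the 9 in Pou3f1 knockdown, and over all tested genes groups lay apart downward for 10.4%, 9.46% and 11.7%. With replicate 1 left out, 22 members (25.9%) lay apart in Bcl6b knockdown and 20 of them were lower, against 27.4% and 19.3% of all tested genes.

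Ndufaf4 is an assembly factor of complex I. The brighter probe set of Ndufaf4 read 1345, 1381, 1378 and 1367 in Etv5 knockdown, 1655, 1383, 1339.8 and 1436 in Bcl6b knockdown and 1445, 1565, 1433 and 1429 in Pou3f1 knockdown, as linear intensity. Control arrays read 1249, 1229, 1231 and 1286. The lowest knockdown array was thus above the highest control array. Log2 differences with 16 arrays were 0.13 ± 0.06 (SE) in Etv5 knockdown, 0.21 ± 0.06 in Bcl6b knockdown and 0.23 ± 0.06 in Pou3f1 knockdown, with limma's adjusted p of 0.401, 0.0593 and 0.0505. Without Bcl6b knockdown replicate 1 they were 0.13 ± 0.04, 0.15 ± 0.04 and 0.23 ± 0.04, and adjusted p was 0.0345, 0.0244 and 0.000543.

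The dimmer Ndufaf4 probe set read 566, 531, 544 and 544 in Etv5 knockdown, 714, 578, 558 and 598 in Bcl6b knockdown and 632, 588, 552 and 640.2 in Pou3f1 knockdown. In control it read 439, 418, 407 and 459. No knockdown array reached the control range. In a fit of 22836 probe sets with 16 arrays, limma's adjusted p was 0.0436 in Etv5 knockdown, 0.00243 in Bcl6b knockdown and 0.0044 in Pou3f1 knockdown, with an SE of 0.08 on each log2 difference. Of all probe sets in that fit 1.26%, 3.98% and 1.36% were called. This was the single probe set of any member to be called with 16 arrays.

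Ndufaf5, a methyltransferase-like assembly factor that modifies a core subunit of complex I, read 336, 336, 351 and 346 in Etv5 knockdown, 343, 297, 304 and 313 in Bcl6b knockdown and 334, 352, 329 and 329 in Pou3f1 knockdown, against 347, 381, 348 and 402 in control. The Bcl6b knockdown arrays were all below the control arrays, while the other knockdowns overlapped control. Its log2 difference in Bcl6b knockdown was -0.23 ± 0.06 (SE, adjusted p = 0.0605, limma) with 16 arrays. Without replicate 1 it fell, at -0.28 ± 0.06 (adjusted p = 0.00585).

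Ndufaf6, another factor of early complex I assembly, read 207, 229.8, 237 and 225 in Etv5 knockdown, 276, 188, 228 and 213 in Bcl6b knockdown and 262, 240.2, 241 and 244 in Pou3f1 knockdown, against 241, 268, 244 and 265 in control. Replicate 1 was the highest of the Bcl6b knockdown arrays and of all arrays, and the other 3 were below every control array. The log2 difference in Bcl6b knockdown was -0.18 ± 0.09 (SE, adjusted p = 0.302, limma) with 16 arrays and -0.28 ± 0.07 (adjusted p = 0.0195) without replicate 1. In Etv5 knockdown all arrays were below control as well, at -0.18 ± 0.07 without that array, which did not pass the test (adjusted p = 0.105). The assembly factors Ndufaf1, Ndufaf2, Ndufaf3, Ndufaf7 and Ndufaf8 were called in no knockdown, with or without that array.

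**Figure D3:**
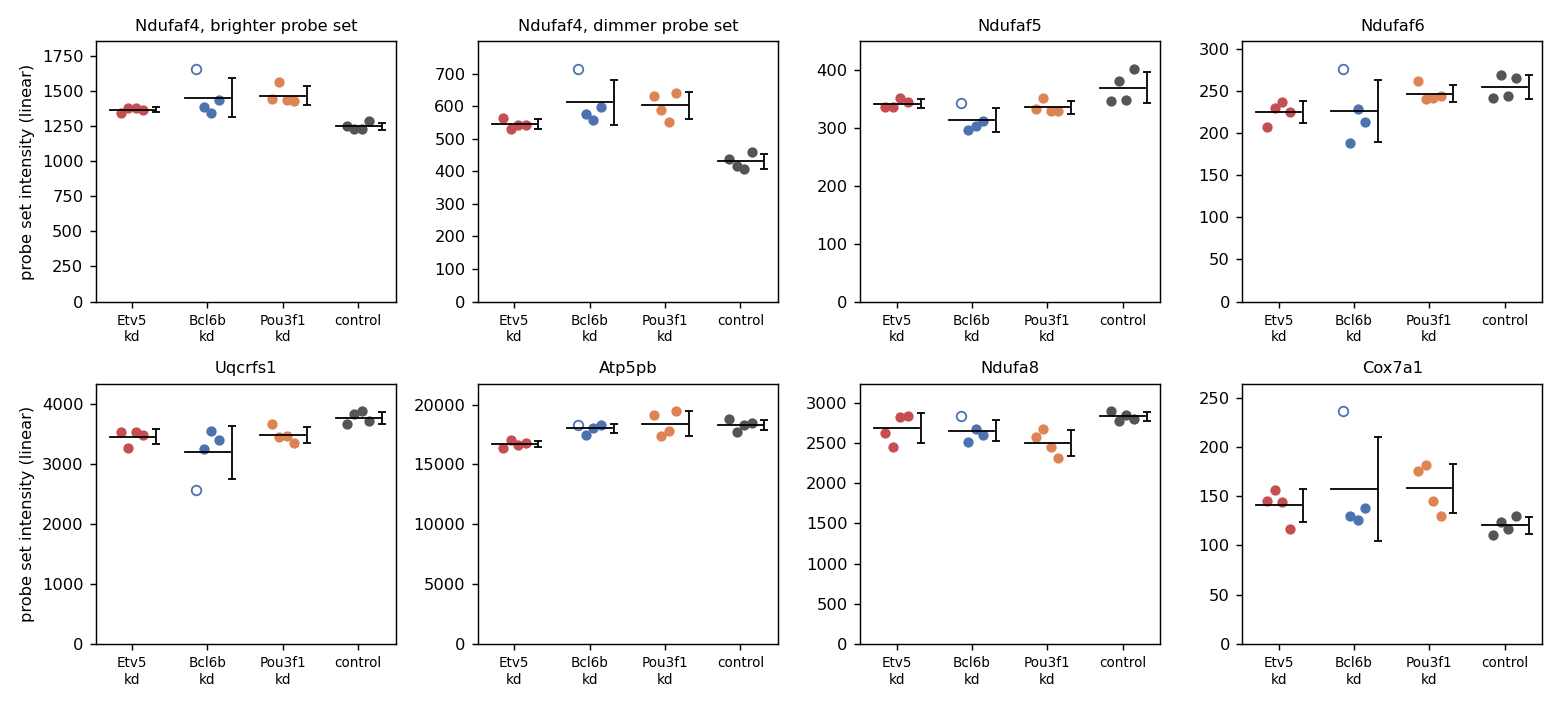
Linear probe set intensity (y axis, from 0) on each array by group (x axis, knockdown abbreviated kd) for 7 genes, with Ndufaf4 shown by both probe sets. Points are arrays, the open point is Bcl6b knockdown replicate 1, horizontal bars are means of 4 arrays and vertical bars are SDs. Both Ndufaf4 panels show every knockdown point above the control points.

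Of the 33 tested complex I subunits, 6 belonged to the catalytic core that carries electrons from NADH to ubiquinone (Ndufv1, Ndufv2, Ndufs1, Ndufs3, Ndufs7 and Ndufs8) and 27 were accessory. No core subunit was called with 16 arrays or without Bcl6b knockdown replicate 1. Over 17 settings of the processing, Ndufs1 was called in Bcl6b knockdown in 1 (adjusted p = 0.0328, limma). The core subunits had medians of -0.07 in Etv5 knockdown, -0.08 in Bcl6b knockdown (-0.10 without replicate 1) and -0.08 in Pou3f1 knockdown. The accessory subunits had medians of -0.03, 0.00 (-0.03 without replicate 1) and -0.05. Ndufs1, the largest core subunit, had the lowest 16-array value of complex I in Bcl6b knockdown, at -0.27 ± 0.10 (SE, adjusted p = 0.15, limma). Without replicate 1 this was -0.14 ± 0.05 (adjusted p = 0.107). Ndufs7 had the highest, at 0.19 ± 0.16 (adjusted p = 0.489), and was -0.04 without replicate 1. A second Ndufs7 probe set gave -0.15 with 16 arrays.

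With 16 arrays no complex I gene was called, and without Bcl6b knockdown replicate 1 all complex I calls were of accessory subunits. These made up 27 of the 33 tested genes of the complex. Without that array 9.52%, 10.9% and 11.4% of all tested genes were called in Etv5, Bcl6b and Pou3f1 knockdown. Ndufa10 read 3259.8, 2967, 3192 and 3163 in Etv5 knockdown, 3749, 2974, 3175 and 3134 in Bcl6b knockdown and 3351, 3185, 3140.1 and 2888 in Pou3f1 knockdown, against 3403, 3601, 3528 and 3302 in control. Apart from replicate 1 of Bcl6b knockdown, all Etv5 and Bcl6b knockdown arrays were below control. It fell in Bcl6b knockdown, at -0.16 ± 0.05 (SE, adjusted p = 0.0404, limma). Its values in Etv5 knockdown (-0.14 ± 0.04, adjusted p = 0.0606) and Pou3f1 knockdown (-0.14 ± 0.04, adjusted p = 0.0503) missed the threshold narrowly. Its 16-array adjusted p were 0.471, 0.443 and 0.408 in Etv5, Bcl6b and Pou3f1 knockdown.

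Ndufa9, an accessory subunit near the ubiquinone site, read 4978, 4922, 5347 and 5050.2 in Etv5 knockdown, 3535, 4466, 4809.9 and 4784 in Bcl6b knockdown and 5134, 5258, 5261 and 4783 in Pou3f1 knockdown, against 5083, 5063, 5203 and 5384 in control. The Bcl6b knockdown arrays were all below control, and replicate 1 was the lowest by far. It fell in Bcl6b knockdown, at -0.15 ± 0.04 (SE, adjusted p = 0.0324, limma) without replicate 1, and the 16-array value of -0.25 ± 0.08 was not called (adjusted p = 0.0964). In Etv5 and Pou3f1 knockdown it was at -0.03 and -0.02.

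Ndufa8 read 2634, 2449, 2832 and 2838 in Etv5 knockdown, 2836, 2515, 2680.0 and 2604 in Bcl6b knockdown and 2572, 2678, 2450.4 and 2314 in Pou3f1 knockdown, against 2896, 2780.0, 2852 and 2807 in control. Its Pou3f1 knockdown arrays were all below control, as were the Bcl6b knockdown arrays apart from replicate 1, while Etv5 knockdown overlapped control. It fell in Pou3f1 knockdown, at -0.18 ± 0.05 (SE, adjusted p = 0.0228, limma) without Bcl6b knockdown replicate 1, and with 16 arrays the same difference had an adjusted p of 0.151.

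Ndufa5 read 5772, 6056, 5986 and 6047 in Etv5 knockdown, 9861, 6064, 5813 and 5913 in Bcl6b knockdown and 5804, 6029, 6083 and 5705 in Pou3f1 knockdown, against 6189, 6431, 6298 and 6305 in control. All knockdown arrays except Bcl6b knockdown replicate 1, which was far above the rest, were below control. The log2 differences without that array were -0.08 in Etv5 knockdown, -0.09 in Bcl6b knockdown and -0.10 ± 0.03 (SE) in Pou3f1 knockdown. Only the last passed limma's test (adjusted p = 0.0482, against 0.1 and 0.0868). A second, dimmer probe set of Ndufa5 gave 0.01, -0.01 and -0.08 in the same order.

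Ndufb7, on the intermembrane-space side of complex I, read 3526, 3271, 3657 and 3607 in Etv5 knockdown, 6484, 3172, 3423 and 3291 in Bcl6b knockdown and 3558, 3249, 3250.3 and 2927 in Pou3f1 knockdown, against 3571, 3694, 3667 and 3525 in control. Its Pou3f1 knockdown arrays overlapped control, since replicate 1 lay within the control range. It fell, at -0.16 ± 0.05 (SE, adjusted p = 0.046, limma) without Bcl6b knockdown replicate 1, and its second probe set gave -0.13 ± 0.07 (adjusted p = 0.246). The highest complex I value was that of Ndufb11 in Etv5 knockdown, 0.10 ± 0.08 with 16 arrays (adjusted p = 0.751), where all 4 arrays were above control. In Pou3f1 knockdown it was that of Ndufb6, 0.10 ± 0.06 (adjusted p = 0.628), while a second Ndufb6 probe set gave -0.09.

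Complex II consists of 4 nuclear subunits, of which Sdha binds FAD, Sdhb carries the iron-sulfur clusters, and Sdhc and Sdhd anchor the enzyme in the membrane. None was called in any knockdown. Sdha read 5052, 4881, 5164 and 5136 in Etv5 knockdown, 3929, 4878, 5055 and 5002 in Bcl6b knockdown and 5168, 5117, 5014 and 4608 in Pou3f1 knockdown, against 5149, 5276, 5396 and 5316 in control. Sdhd read 2356, 2344, 2421 and 2370.3 in Etv5 knockdown, 1343, 2305, 2410.4 and 2230.2 in Bcl6b knockdown and 2469, 2407, 2377 and 2332 in Pou3f1 knockdown, against 2452, 2481, 2492 and 2396 in control. Both were lowest on Bcl6b knockdown replicate 1.

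With 16 arrays the log2 differences in Bcl6b knockdown were -0.17 for Sdha, -0.12 for Sdhb, -0.12 for Sdhc and -0.28 for Sdhd, and limma's adjusted p ran from 0.177 to 0.38. Without replicate 1 they were -0.09, -0.10, -0.03 and -0.09, with adjusted p from 0.131 to 0.767. A second bright probe set gave 0.12 for Sdhd, -0.35 for Sdhc and -0.00 for Sdha in Bcl6b knockdown with 16 arrays. In Etv5 knockdown all 4 genes were below 0, between -0.08 (Sdhc) and -0.02 (Sdhb). In Pou3f1 knockdown the 4 genes ran from -0.09 (Sdha) to 0.00 (Sdhc). Below 0 were 60.5% of all tested genes in Etv5 knockdown and 59.1% in Pou3f1 knockdown.

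Complex III had 8 tested subunits. Uqcrfs1, the Rieske iron-sulfur protein, read 3533, 3266, 3539 and 3477 in Etv5 knockdown, 2566, 3249, 3558 and 3395 in Bcl6b knockdown and 3662, 3455, 3459 and 3346 in Pou3f1 knockdown, against 3661, 3832, 3876 and 3723 in control. Etv5 and Bcl6b knockdown arrays were all below control, Bcl6b knockdown replicate 1 being the lowest, and Pou3f1 knockdown replicate 1 just reached the lowest control array. Without Bcl6b knockdown replicate 1 it fell in Etv5 knockdown, at -0.13 ± 0.04 (SE, adjusted p = 0.0436, limma) and in Bcl6b knockdown by -0.15 ± 0.04 (adjusted p = 0.0263). In Pou3f1 knockdown it was at -0.12 ± 0.04 (adjusted p = 0.0575). With 16 arrays its values were -0.13, -0.25 and -0.12, with adjusted p of 0.616, 0.0906 and 0.624. Uqcrc2, a core protein, and Uqcr10, a small subunit, had the highest values of complex III. Uqcr10 was at 0.07 ± 0.07 in Etv5 knockdown (adjusted p = 0.828), where its other probe sets gave -0.15 and 0.05. Uqcrc2 was at 0.07 ± 0.07 in Bcl6b knockdown (adjusted p = 0.564), and at -0.02 without replicate 1. A second Uqcrc2 probe set gave -0.20 there with 16 arrays.

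Complex IV exists in tissue isoforms, and general forms as well as some tissue isoforms were bright enough to be tested. Cox4i2, Cox6a2, Cox8b and Ndufa4l2 stayed between 2.96 and 4.87 on all arrays, below every array's median (15.6 to 17.1), and were not tested. Ndufb4, an accessory subunit of complex I, was not tested either, with a control mean of 3.93 on its only probe set. Whether such low values mean that a transcript was absent was not tested. Cox4i2 is a form of lung and of low oxygen, and Cox6a2 and Cox8b are forms of heart and skeletal muscle. Cox4i1, Cox6a1 and Cox8a, their general counterparts, were bright and called in no knockdown. Their log2 differences with 16 arrays were -0.01, -0.00 and 0.04 in Etv5 knockdown, 0.01, -0.00 and -0.12 in Bcl6b knockdown and -0.09, -0.07 and -0.04 in Pou3f1 knockdown. Cox5a and Cox5b lay between -0.08 and 0.08 in every knockdown. The testis isoforms Cox6b2, Cox7b2 and Cox8c were measured too. Cox7b2 read 507, 535, 555 and 467 in Etv5 knockdown, 722, 516, 572 and 492 in Bcl6b knockdown and 572, 593, 567 and 486 in Pou3f1 knockdown, against 477, 555, 477 and 513 in control. Cox8c stayed between 34.1 and 35.5 on all arrays, Bcl6b knockdown replicate 1 among them. Its second probe set was not bright, with a control mean of 2.56. Whether so flat a value is signal or background was not tested. None of these testis isoforms was called, and Cox7b2 was at 0.03, 0.17 and 0.13 (0.06 in Bcl6b knockdown without replicate 1).

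Cox7a1, the heart and skeletal muscle form of subunit 7a, was the single complex IV gene to be called. It read 145, 156, 144 and 117 in Etv5 knockdown, 236, 130.4, 126 and 138 in Bcl6b knockdown and 176, 182, 145 and 130.2 in Pou3f1 knockdown, against 110.3, 124, 117 and 130.3 in control. The spread was wide, with Bcl6b knockdown replicate 1 far above the rest and Pou3f1 knockdown replicate 4 within the control range. It rose in Pou3f1 knockdown by 0.38 ± 0.10 (SE, adjusted p = 0.0227, limma) without Bcl6b knockdown replicate 1, and with 16 arrays the same difference had an adjusted p of 0.378. In Etv5 and Bcl6b knockdown it was at 0.22 ± 0.10 and 0.13 ± 0.11 without that array (adjusted p = 0.201 and 0.501). Of 6 muscle and heart markers on the array 2 were bright enough to be tested and neither was called in any knockdown, and the 6 summed to 221 to 284 in Pou3f1 knockdown, against 239 to 255 in control. Cox7a2 and Cox7a2l were called in no knockdown. The lowest complex IV values were Cox6c in Etv5 knockdown (-0.09 ± 0.07, adjusted p = 0.792), Cox8a in Bcl6b knockdown (-0.12 ± 0.11, adjusted p = 0.554) and Cox6b1 in Pou3f1 knockdown (-0.09 ± 0.06, adjusted p = 0.599).

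Complex V is the ATP synthase, with a catalytic head that contains Atp5a1 and Atp5b and a membrane part with a stalk that contains Atp5pb. Atp5pb read 16386, 17039.6, 16654 and 16763 in Etv5 knockdown, 18319, 17487, 18034 and 18265 in Bcl6b knockdown and 19115, 17345, 17816 and 19435 in Pou3f1 knockdown, against 18787, 17704, 18309 and 18436 in control. The Etv5 knockdown arrays were all below every other array. It fell in Etv5 knockdown, at -0.13 ± 0.03 (SE, adjusted p = 0.0213, limma) without Bcl6b knockdown replicate 1, and with 16 arrays the adjusted p was 0.117. In Bcl6b and Pou3f1 knockdown it was at -0.03 and 0.01. Its second probe set gave -0.09 ± 0.04 in Etv5 knockdown (adjusted p = 0.139), -0.06 in Bcl6b knockdown and -0.07 in Pou3f1 knockdown.

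Atp5k, a small subunit of the membrane part, read 6499.6, 6340.1, 6608 and 6620.2 in Etv5 knockdown, 11934, 6129, 6513 and 6626 in Bcl6b knockdown and 6524, 6156, 5699 and 5903 in Pou3f1 knockdown, against 6710.0, 6573, 6779 and 6833 in control. All Pou3f1 knockdown arrays were below control, and Bcl6b knockdown replicate 1 was far above all others. Without that array Atp5k fell in Pou3f1 knockdown, at -0.15 ± 0.04 (SE, adjusted p = 0.016, limma), and with 16 arrays the adjusted p was 0.798. Its other probe sets gave -0.05 and -0.08 in Pou3f1 knockdown and were not called.

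Atp5a1, the alpha subunit of the head, read 12191, 11371, 12649 and 12168 in Etv5 knockdown, 6820.4, 11323, 12134 and 11812 in Bcl6b knockdown and 12179, 11958, 12380.5 and 11135 in Pou3f1 knockdown, against 12449.7, 12909, 12862 and 12392 in control. It had the lowest 16-array value of all members in Bcl6b knockdown, -0.30 ± 0.13 (SE, adjusted p = 0.216, limma), and was at -0.11 ± 0.04 (adjusted p = 0.105) without replicate 1. Its other probe sets gave -0.02 and 0.47 with 16 arrays. Atp5o, a stalk subunit, had the highest complex V value in Bcl6b knockdown at 0.21 ± 0.11 (adjusted p = 0.297), and 0.07 without replicate 1. In Pou3f1 knockdown it was at 0.04 ± 0.11. A second Atp5o probe set gave -0.08 in Bcl6b knockdown with 16 arrays and -0.02 in Pou3f1 knockdown. In Etv5 knockdown the highest was Atp5mpl at 0.09 ± 0.05 (adjusted p = 0.544).

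On Bcl6b knockdown replicate 1, genes of the same complex lay both above and below the group's other arrays, except in complex II. Measured against the mean of the other 3 Bcl6b knockdown arrays, 52 members were higher on it and 33 lower, with a median of 0.13 (log2), against 0.12 over all tested genes. A size over 0.5 was reached by 22.4% of the members and by 34.6% of all tested genes. Within complex V it ran from -0.78 for Atp5a1 to 0.89 for Atp5k, and within complex I from -0.51 for Ndufs1 to 0.98 for Ndufb7. All 4 complex II genes were lower, from -0.78 for Sdhd, with a median of -0.36. Complex IV had a median of 0.22, with Cox7a2l and Cox7a1 both at 0.84 and Cox8a at -0.60. ND5, the single gene of mitochondrial DNA named on the array and a core subunit of complex I, read 5610.0 on it, against 18127, 17592 and 18753 on the other Bcl6b knockdown arrays.

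**Figure D4:**
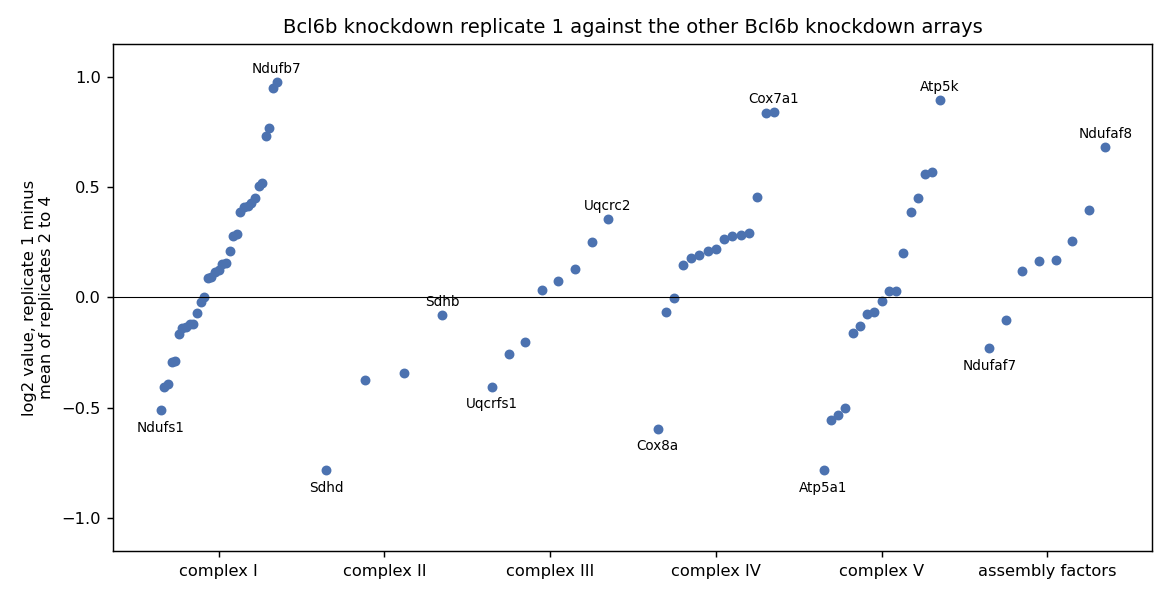
Log2 value on Bcl6b knockdown replicate 1 minus the mean of Bcl6b knockdown replicates 2 to 4 (y axis) for each tested gene, sorted within each complex (x axis). Points are genes, and the lowest and highest gene of each complex is named. Complexes I, III, IV and V and the assembly factors hold genes on both sides of 0, and all 4 genes of complex II lie below it.

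Between knockdowns, no member was called with 16 arrays. Called with 16 arrays were 1.49% of all tested genes between Etv5 and Bcl6b knockdown, 1.44% between Etv5 and Pou3f1 knockdown and 2.18% between Bcl6b and Pou3f1 knockdown. At an unadjusted p under 0.05 limma had 10, 3 and 4 members in that order, against 14.3%, 9.04% and 15.6% of all tested genes. Without Bcl6b knockdown replicate 1, 2 members were called between Etv5 and Pou3f1 knockdown (6.36% of all tested genes) and none in the other pairs (4.5% and 5.11%). Unadjusted p under 0.05 then held for 7 members between Etv5 and Bcl6b knockdown, 13 between Etv5 and Pou3f1 knockdown and 4 between Bcl6b and Pou3f1 knockdown, against 17.4%, 20.6% and 17.5% of all tested genes.

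The pair was Atp5pb, lower in Etv5 than in Pou3f1 knockdown by a log2 difference of -0.14 ± 0.03 (SE, adjusted p = 0.022, limma), and Ndufb5, an accessory subunit of complex I, by -0.11 ± 0.03 (adjusted p = 0.0267). Ndufb5 read 5995, 5866, 5944 and 6101 in Etv5 knockdown, 7667, 6142, 6378 and 6339.5 in Bcl6b knockdown and 6352, 6449, 6394 and 6596 in Pou3f1 knockdown, against 6233, 6473, 6128 and 6404 in control. Its Etv5 knockdown arrays were all below the Pou3f1 knockdown arrays. A second probe set did not share this difference, at -0.12 in both knockdowns against control for Ndufb5, and at -0.09 and -0.07 for Atp5pb.

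Since the targets are transcription factors, promoters are shown of both genes called in more than 1 knockdown without Bcl6b knockdown replicate 1, and of Atp5k, which had the lowest adjusted p in Pou3f1 knockdown after Ndufaf4 without that array. Windows run from 250 bases before to 50 bases after the gene's start, on the gene's strand, from RefSeq on GRCm38.p6, and 74 of the 90 members had one. Capitals mark CCGGAAG, a core that ETS factors such as Etv5 bind, and the site of the respiratory gene regulator NRF1, which is GCGCA, any base and then GCGC, on either strand.
Ndufaf4 (chr4:24897833-24898132, plus strand): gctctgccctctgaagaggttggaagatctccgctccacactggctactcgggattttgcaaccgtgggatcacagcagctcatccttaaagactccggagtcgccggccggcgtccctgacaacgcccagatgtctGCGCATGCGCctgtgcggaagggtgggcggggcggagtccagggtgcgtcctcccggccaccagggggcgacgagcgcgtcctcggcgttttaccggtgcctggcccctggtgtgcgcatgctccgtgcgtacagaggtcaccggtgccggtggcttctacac
Uqcrfs1 (chr13:30545267-30545566, minus strand): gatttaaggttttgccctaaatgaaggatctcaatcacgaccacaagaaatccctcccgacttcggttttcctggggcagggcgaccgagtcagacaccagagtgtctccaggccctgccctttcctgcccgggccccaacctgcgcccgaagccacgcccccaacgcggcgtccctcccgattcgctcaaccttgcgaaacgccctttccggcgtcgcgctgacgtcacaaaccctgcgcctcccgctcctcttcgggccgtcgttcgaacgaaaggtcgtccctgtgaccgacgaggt
Atp5k (chr5:108434350-108434649, minus strand): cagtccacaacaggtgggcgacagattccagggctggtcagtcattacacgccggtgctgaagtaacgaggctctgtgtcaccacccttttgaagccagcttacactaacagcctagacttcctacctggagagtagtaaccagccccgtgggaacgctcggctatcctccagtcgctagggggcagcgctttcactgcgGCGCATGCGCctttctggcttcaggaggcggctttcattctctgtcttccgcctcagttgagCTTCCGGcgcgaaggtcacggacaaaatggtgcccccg
The Ndufaf4 window holds 1 NRF1 match, Atp5k 1 match of each kind, and Uqcrfs1 none. Without Bcl6b knockdown replicate 1, Atp5pb had the lowest adjusted p of the members in Etv5 knockdown, and its window holds neither match. The window of Ndufb7, which fell in Pou3f1 knockdown in that fit, holds 1 CCGGAAG match and no NRF1 match.

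Over the members, CCGGAAG was found in 18 of 74 windows (24.3%), against 19.2% of the 9077 tested genes with a window. The NRF1 site was found in 16 windows (21.6%), against 11.4%. The octamer ATTTGCAT, the site of POU factors such as Pou3f1, was in 1 window (1.35%), against 1.32%. TTCCTNGAA, the BCL6 core, was in 1 window (1.35%), against 0.992%, and AANATGGCG, the YY1 core, was in 8 (10.8%), against 5.77%. No match of one motif overlapped a match of another. A match is a description of letters, and the windows show nothing about binding in these cultures.

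Other genes of the pathway were read from lists by function. Of all tested genes, 2.09%, 3.21% and 2.25% were called with 16 arrays in Etv5, Bcl6b and Pou3f1 knockdown. Of 43 tested assembly factors and chaperones of all complexes (Ndufaf1 to Ndufaf8 among them), 1 rose in each knockdown with 16 arrays and it was Surf1, a factor of complex IV assembly. Surf1 read 796, 811, 844 and 845 in Etv5 knockdown, 986, 803, 911 and 866 in Bcl6b knockdown and 887, 922, 806 and 726 in Pou3f1 knockdown, against 549, 617, 590.1 and 622 in control. All knockdown arrays were above control. Its log2 differences were 0.47 ± 0.08 (SE, adjusted p = 0.00363, limma) in Etv5 knockdown, 0.58 ± 0.08 (adjusted p = 0.000554) in Bcl6b knockdown and 0.49 ± 0.08 (adjusted p = 0.0026) in Pou3f1 knockdown. Cox18, which inserts a mitochondrially made subunit of complex IV, fell in Pou3f1 knockdown, at -0.33 ± 0.07 (adjusted p = 0.0208, and 0.000163 without Bcl6b knockdown replicate 1). Leaving out that array, the counts were 3 up and 2 down in Etv5 knockdown, 2 up and 7 down in Bcl6b knockdown and 2 up and 1 down in Pou3f1 knockdown. In that fit 9.52%, 10.9% and 11.4% of all tested genes were called, in the same order. The list's medians with 16 arrays were -0.03, -0.03 and -0.04.

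Among 18 electron carriers and subunits outside the symbol rule, Etfdh, which feeds electrons from fatty acid oxidation to ubiquinone, was the one gene called with 16 arrays. It read 1511, 1419, 1436 and 1468 in Etv5 knockdown, 1312, 1283, 1325 and 1422 in Bcl6b knockdown and 1470.0, 1579, 1476 and 1409 in Pou3f1 knockdown, against 1681, 1662, 1674 and 1729 in control. Each knockdown array was below control. It fell, at -0.21 ± 0.05 (SE, adjusted p = 0.0282, limma) in Etv5 knockdown and -0.34 ± 0.05 (adjusted p = 0.000662) in Bcl6b knockdown, and in Pou3f1 knockdown it was at -0.19 ± 0.05 (adjusted p = 0.0505, and 0.00684 without Bcl6b knockdown replicate 1). Of 18 genes of the citric acid cycle and pyruvate dehydrogenase, Dlat, a subunit of pyruvate dehydrogenase, fell in Bcl6b knockdown, at -0.27 ± 0.05 (adjusted p = 0.0142), and none was called in the other knockdowns with 16 arrays. With that array left out Dlat lay at -0.21 ± 0.04 in Bcl6b knockdown (adjusted p = 0.00367), where Dlst, Suclg2 and Etfb fell as well, Dld fell in Etv5 knockdown, and none of the citric acid cycle list was called in Pou3f1 knockdown.

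Of 23 tested regulators of mitochondrial biogenesis, Ppargc1a, the coactivator of respiratory genes, read 614, 682, 561 and 647 in Etv5 knockdown, 1338, 703, 556 and 609.9 in Bcl6b knockdown and 562, 628, 545 and 601 in Pou3f1 knockdown, against 393, 379, 346 and 399.8 in control. All knockdown arrays were above control, and Bcl6b knockdown replicate 1 was the highest of all. It rose in Bcl6b knockdown with 16 arrays, by 0.99 ± 0.19 (SE, adjusted p = 0.00946, limma). Without that array it rose in all 3 knockdowns, by 0.72 ± 0.08 in Etv5 knockdown (adjusted p = 4.67e-06), 0.71 ± 0.08 in Bcl6b knockdown (adjusted p = 1.73e-05) and 0.62 ± 0.08 in Pou3f1 knockdown (adjusted p = 2.75e-05). Sirt3, a mitochondrial deacetylase, rose with 16 arrays in Bcl6b knockdown (0.28 ± 0.06, adjusted p = 0.0237) and Pou3f1 knockdown (0.26 ± 0.06, adjusted p = 0.0419). In Etv5 knockdown it was at 0.23 ± 0.06 (adjusted p = 0.0806, and 0.0177 without that array). In the fit without it Esrra also fell in Bcl6b knockdown, at -0.20, and Gabpa rose in Pou3f1 knockdown, by 0.24. The list's medians were -0.01, -0.03 and 0.00.

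Of 18 mitochondrial carriers and pores, Vdac2, a channel of the outer membrane, fell in Pou3f1 knockdown, at -0.43 ± 0.07 (SE, adjusted p = 0.00177, limma) and was the one gene called with 16 arrays. With Bcl6b knockdown replicate 1 left out it lay at -0.43 ± 0.04 there (adjusted p = 4.43e-07), and it also fell in Etv5 knockdown, at -0.12 ± 0.04 (adjusted p = 0.0445), and in Bcl6b knockdown, at -0.14 ± 0.04 (adjusted p = 0.0262). Slc25a12 fell in Etv5 knockdown and Tomm20 rose in Pou3f1 knockdown in that fit. Slc25a4, the heart form of the ADP/ATP carrier that exchanges the product of complex V, read 19714, 18222, 18758 and 19255 in Etv5 knockdown, 13573, 18312, 18192 and 17863 in Bcl6b knockdown and 18438, 18954, 18551 and 18034 in Pou3f1 knockdown, against 15436, 16182, 15873 and 16472 in control. Every knockdown array except Bcl6b knockdown replicate 1, the lowest of all, was above control. Without that array Slc25a4 rose by 0.25 ± 0.03 in Etv5 knockdown (adjusted p = 2.54e-05), 0.18 ± 0.03 in Bcl6b knockdown (adjusted p = 0.00141) and 0.21 ± 0.03 in Pou3f1 knockdown (adjusted p = 0.000145), and with it none passed. Of 76 mitochondrial ribosomal protein genes, Mrpl16 in Bcl6b knockdown was the one call with 16 arrays, a fall. Without replicate 1 there were 4 falls in Etv5 knockdown, 4 in Bcl6b knockdown and none in Pou3f1 knockdown. Of all tested genes 4.94%, 6.87% and 7.08% were called lower in that fit, in the same order. ND5 lay at -0.03 in Etv5 knockdown, -0.44 in Bcl6b knockdown (-0.01 without replicate 1) and -0.01 in Pou3f1 knockdown, and passed in none.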

How the data were processed

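Gene expression was measured on 16 Affymetrix Mouse 430 2.0 arrays, 4 per group, from oligo(dT)-primed cDNA, which reads mostly 3' ends. The deposited values are linear intensities of 45101 probe sets, as the authors normalized them. Tools listed in the submitters' processing notes, with no role or order, are GCRMA, Partek 6.4, Affymetrix Expression Console 1.1 and MAS5, and which made the values is unknown. Intensities ran from 1.66 to 71511 and array medians from 15.6 to 17.1. No read depth applies, and the number of arrays limits the precision.

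From these, log2(intensity + 1) was computed, so fold changes of dim genes are understated. Each gene was read from its probe set of highest mean, levels were not compared between probe sets, and 11145 genes above the array's median on at least 4 arrays were tested. Differences were fitted with limma 3.58.1 (R 4.3.3; 1 model of 4 groups, trended prior), p-values adjusted by Benjamini and Hochberg's method across these genes and a threshold of 0.05, with 16 arrays and without Bcl6b knockdown replicate 1, and the fitting was tested on simulated data. Members and gene lists were chosen with earlier results of these data known. Named are called genes, the highest and lowest of each complex, isoform pairs, the Sdh genes, called pathway genes and the targets. The fit of all probe sets was added after seeing the data. Of 96 protein-coding genes matching the symbols, 6 had no probe set of their own. Arrays with the same replicate number correlated in their deviations from group means at -0.26 to 0.20 (median 0.06). Those with different numbers correlated at -0.29 to 0.20 (median -0.02). Without Bcl6b knockdown replicate 1 the ranges were -0.26 to 0.33 (median 0.05) and -0.34 to 0.30 (median -0.02). The ranges overlapped, and the numbers were not taken to pair arrays. Other normalizations, filters, offsets, weights and left-out arrays were tried as alternatives.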

Additional observations from a re-analysis of the deposited data

Results flagged for a closer look

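In groups of 4 arrays, an array was singled out where its gap to the nearest other was above Dixon's critical share of the group's range, which chance gives in about 1 of 20 groups. Of 144 groups examined 18 had such an array, and 12 of these were Bcl6b knockdown replicate 1, the array with the high 3' to 5' signal of its control probe sets. The groups held 29 named members and medians of gene sets. Many of these members were named as the highest or lowest of a complex in the fit with that array. The counts therefore cannot be set against the share that chance gives. On Bcl6b knockdown replicate 1 the median deviation from the control mean (log2) was -0.41 for complex II and 0.22 for complex IV. Its intensity stood apart downward for Atp5a1 (6820.4), Sdha (3929) and Sdhd (1343). It stood apart upward for Atp5k (11934), Cox7a1 (236), Ndufa5 (9861), Ndufb5 (7667), Ndufb7 (6484), Ndufs7 (10297) and Uqcrc2 (9148).

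The other 6 were spread over 4 arrays. Etv5 knockdown replicate 3 was high for Atp5mpl (7145) and Sdhb (4126). Pou3f1 knockdown replicate 4 stood apart for Cox6c (14456.5) and was low for Sdhb (3191). Pou3f1 knockdown replicate 2 was high for Ndufaf4 (1565), and Pou3f1 knockdown replicate 3 stood apart for Sdhc (5080.2).

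Etv5 and Pou3f1 knockdown differed from each other in 2 members without Bcl6b knockdown replicate 1, by a log2 difference of -0.14 for Atp5pb and -0.11 for Ndufb5. With 16 arrays neither passed limma's test (adjusted p = 0.119 and 0.608).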

How the results depend on the processing

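Some medians of the log2 differences crossed 0 when single arrays were left out. In Bcl6b knockdown they ran from -0.039 to 0.005 for all members, -0.039 to 0.012 for complex I and -0.061 to 0.003 for complex III. In Etv5 knockdown they ran from -0.053 to 0.004 for complex III and -0.008 to 0.006 for complex IV. In Pou3f1 knockdown the ranges were -0.031 to 0.003 for complex IV and -0.034 to 0.076 for the assembly factors. The count of members called was 0 in every comparison of the main fit with 16 arrays. It varied with the setting, including how Bcl6b knockdown replicate 1 was treated. Array weights, which gave that array 0.0288, called 9 members in Etv5, 16 in Bcl6b and 8 in Pou3f1 knockdown, where 14.9%, 18.7% and 15.6% of all tested genes were called. They called 2, 4 and 1 between Etv5 and Bcl6b, Etv5 and Pou3f1, and Bcl6b and Pou3f1 knockdown, where 9.26%, 8.56% and 8.15% were. Fitting only the groups compared called 5 in Etv5 and 4 in Pou3f1 knockdown (8.94% and 10.2% of all). Median centring, quantile normalization and the mean over probe sets each called 2 in Bcl6b and 1 in Pou3f1 knockdown (3.4%, 3.46% and 3.69% of all in Bcl6b, and 2.2%, 2.11% and 1.62% in Pou3f1 knockdown). Leaving out single arrays gave 0 to 3 calls in Etv5, 0 to 6 in Bcl6b, 0 to 6 in Pou3f1 knockdown and 0 to 2 between Etv5 and Pou3f1 knockdown, the highest of each without Bcl6b knockdown replicate 1, and without Bcl6b knockdown replicate 3 there were 2 in Bcl6b knockdown (3.38% of all). The replicate block called 0 with 16 arrays (1.18% to 2.49% of all), and without Bcl6b knockdown replicate 1 the replicate block called 3, 5 and 7 in Etv5, Bcl6b and Pou3f1 knockdown and 2 between Etv5 and Pou3f1 knockdown (9.36%, 8.88%, 11.2% and 5.95% of all). The complex IV median of Etv5 knockdown was 0.0294 after quantile normalization. The complex V median of Bcl6b knockdown was -0.000135 with the mean over probe sets and ran from -0.0438, without replicate 1, to -0.00784 over the left-out arrays. Causes of these changes were not tested. Of 43 named differences 33 had the same sign in every setting and 19 were called in none.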

Other observations

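Probe sets of the same gene often differed in direction. Of 47 members with 2 or more bright probe sets, all probe sets had the same sign in 30 in Etv5 knockdown, 12 in Bcl6b knockdown (27 without replicate 1) and 30 in Pou3f1 knockdown. The widest range between probe sets of a gene was 0.38 for Ndufb8 in Etv5 knockdown, 0.77 for Atp5a1 in Bcl6b knockdown and 0.32 for Ndufb8 in Pou3f1 knockdown, on the log2 scale. Without replicate 1 the widest in Bcl6b knockdown was 0.52, for Ndufab1.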
